A study of Rattus norvegicus with 8 samples.

Results

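The MAPK, Ras and Rap1 pathway genes examined here are the genes of the differential m6A regions whose KEGG annotation, as deposited, names the MAPK, the Ras or the Rap1 signaling pathway. Taok1, Taok2, Pik3r1, Ccnd1 and the genes whose names start with Cacn, Itg, Fln, Tiam, Gri, Thbs or Arhg were left out. The rule gave 58 regions in 52 genes, of 1967 regions in 1726 genes in all. Only 540 of these genes carry a pathway annotation, so a pathway gene without one is not among the members.

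The data are MeRIP-seq, in which RNA fragments that carry N6-methyladenosine (m6A), a methyl mark on RNA, are enriched with an antibody and sequenced beside input that was not enriched. Vascular smooth muscle cells (VSMCs), which contract the artery wall, were taken as primary cells from rats. There were 4 groups of 2 libraries: m6A immunoprecipitation (IP) and input from cells labelled Mettl3-overexpressing, and IP and input from cells labelled vector, with control as their genotype. Mettl3 is the catalytic subunit of the main m6A writer of messenger RNA. Neither the overexpression vector and its promoter, nor the strain, sex and age of the rats, nor separate isolations for the libraries of a group are given in the sources used here.

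In these pathways growth factors bind receptors at the cell surface, exchange factors load the small GTPases Ras and Rap1 with GTP, and GTPase-activating proteins switch them off. Ras passes the signal to a relay of kinases that ends in the MAP kinases ERK, JNK and p38, while Rap1 acts mainly on adhesion. In VSMCs, platelet-derived growth factor drives division and migration through the Ras and ERK arm, and stress signals run through JNK and p38.

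What was examined is the authors' own comparison of Mettl3-overexpressing with vector cells, region by region, which lists a fold, a p-value and a p-value adjusted for multiple testing. It lists regions with a p-value under 0.05 and a fold of at least 4, so that every member had already met these limits and the fold itself is no finding. The deposited fold is above 1 in both directions, and lower or higher below refers to Mettl3-overexpressing cells. A region passes where the authors' adjusted p is under 0.05. Values per library were not used here, so the spread between libraries cannot be given for any region, and the depth of each library is unknown. It is also unknown whether the authors' p-values reflect that spread, which may be technical. The sources used here do not say if the fold takes input into account, so less m6A on an RNA, less of that RNA per cell and fewer cells that make it cannot be told apart. Coordinates are as deposited, with starts counted from 1, in a build that the sources used here do not name and that is not GRCr8. Mettl3 itself had listed regions in both directions, all 3 of them passing by the authors' deposited table. Its higher regions had folds of 127.7 and 128.8 (adjusted p = 9.73e-05 and 0.000227), its lower one 233.6 (adjusted p = 3.50e-06), and 128.8 and 233.6 were the largest folds of their direction in the authors' deposited table. How far these values bear on the overexpression was not tested. Of 5 smooth muscle markers 1, Cnn1, had a listed region, and of 10 markers of endothelium, leukocytes and adventitial fibroblasts none had one; unlisted regions were not used here, so these counts do not check the cells' identity.

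Genes from ligands to transcription factors of these pathways had m6A regions listed as lower in Mettl3-overexpressing cells, and few of these regions passed. Of the 58 regions, 5 were higher and 53 were lower in the authors' deposited table, or 91.4% lower, beside 86.9% of all listed regions. The threshold was passed by 8 regions in 8 genes (13.8%), beside 14.0% of all listed regions. All 8 were lower, which is 15.1% of the 53 lower regions beside 13.0% of all listed lower ones. Of the 5 higher regions none passed, although each had an unadjusted p under 0.05, beside 20.2% of all listed higher regions. Except for the 0 of 5 higher regions, a number too small to read, these shares lie near those of all listed regions and are no result about the pathway genes. With no gene left out of the 3 pathways, 11 regions passed, of which 2 were higher and 9 lower. The 8 member regions that passed lay in Map3k5, Mapk8ip3, Dock4, Ntf4, Rasa2, Magi2, Sipa1 and Pla2g4a. They span a ligand, an exchange factor, GTPase-activating proteins, a kinase, scaffolds and a lipase rather than a single level of the pathways.

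**Figure D1:**
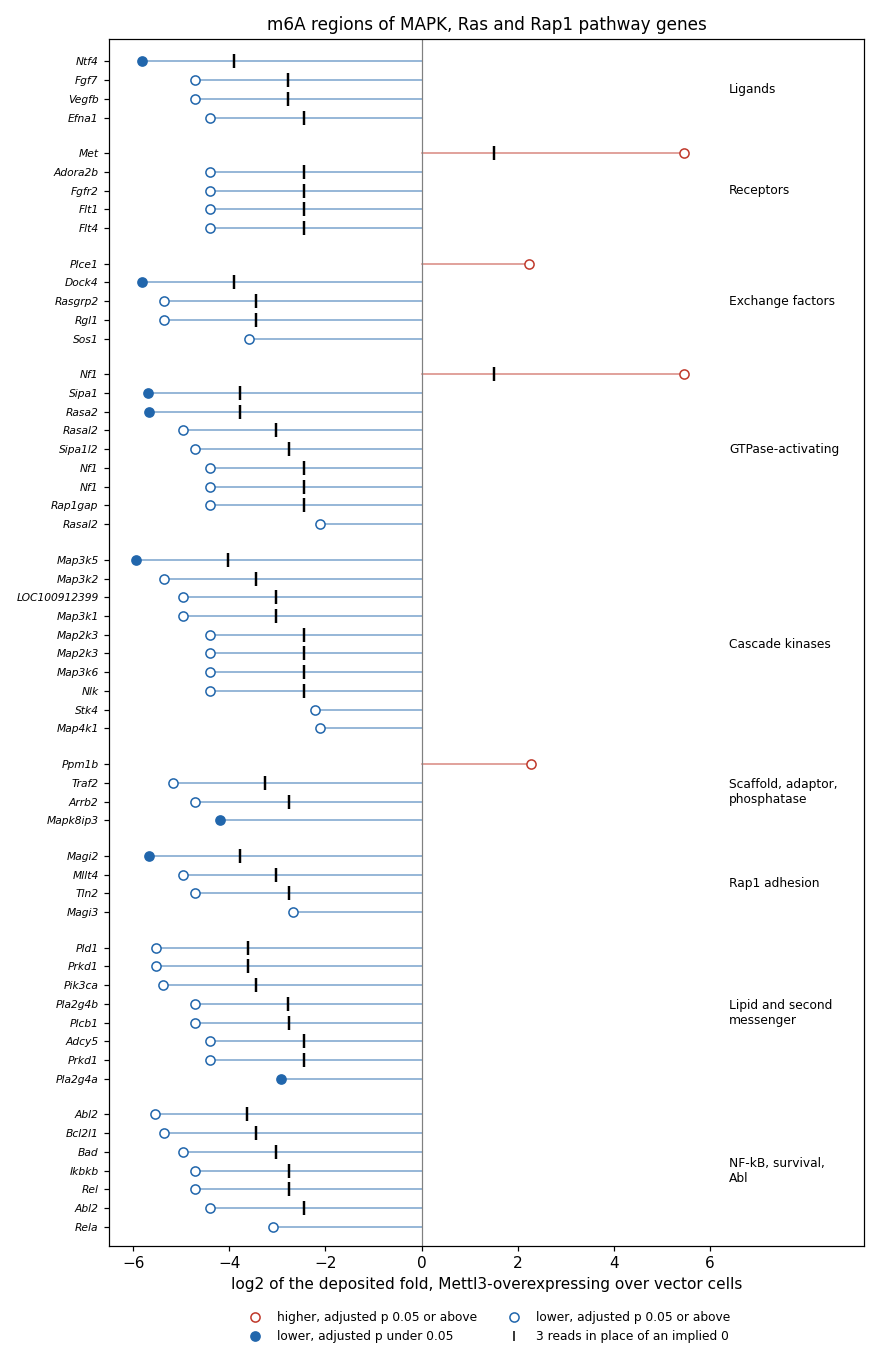
Deposited fold of 56 of the 58 regions as log2 of Mettl3-overexpressing over vector cells (x axis), 1 row per region, grouped by role. Filled points have an adjusted p under 0.05. Black ticks give the fold with 3 reads in place of an implied 0 and no constant. The 4 higher regions drawn (red) and the 52 lower ones (blue) lie on opposite sides of 0, and the 8 filled points are all lower.

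The size of most folds rests on a condition with no reads. For 48 of the 58 regions the fold has the form that a mean of 0 in one condition gives when a constant of 0.1 is added to both means, and the other mean then falls on whole multiples of what 1 read over a condition's 2 libraries is worth. Reads derived in this way are called implied reads; they were inferred here and stand in no deposited column. In the folds a vector read weighed 4.09 times an overexpression read, and whether that weight matches the depth of the libraries was not tested. Of the 53 lower regions, 45 (84.9%) had an implied 0 in the overexpressing libraries, beside 82.7% of all listed lower regions. Of the 5 higher regions, 3 had an implied 0 in the vector libraries (60.0%, beside 56.0% of all listed higher ones).

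The lower regions rested on few reads. Over the 53 lower regions the implied reads ran from 0 to 24 in the overexpressing libraries, with a median of 0, and from 4 to 28 in the vector libraries, with a median of 6. Summed over these regions they came to 59 reads in the overexpressing and 384 reads in the vector libraries. A total of 25 of them (47.2%, beside 39.6% of all listed lower regions) had 0 overexpression reads against 4 or 5 vector reads, the fewest with which a region with an implied 0 was listed. The higher regions had 28 to 43 implied overexpression reads against 0 to 2 vector reads. Only 1 lower region, in Stk4, had 28 or more reads in the condition with the higher signal. The median deposited fold was 35.5 for the 5 higher and 26.1 for the 53 lower regions, beside 25.6 and 26.2 for all listed regions. When each implied 0 was replaced by 3 reads over both libraries, the weights were kept and no constant was added for those regions. The medians were then 2.86 for the higher and 6.83 for the lower members, beside 4.19 and 7.15 for all listed regions. Ratios of unweighted reads then had medians of 11.7 for the higher and 1.67 for the lower members. For all listed regions whose fold could be solved, these were 17.5 and 2.0.

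**Figure D2:**
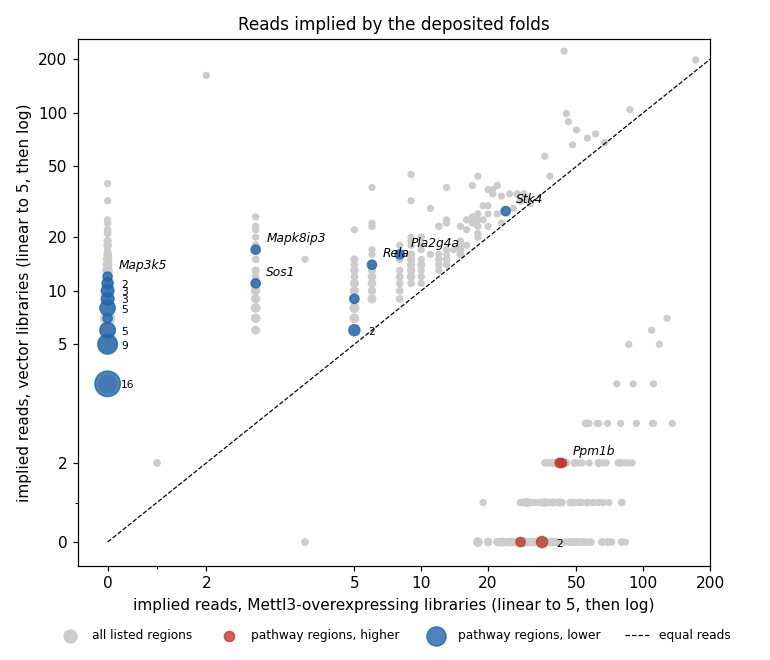
Implied reads in the 2 Mettl3-overexpressing libraries (x axis) and in the 2 vector libraries (y axis), both linear to 5 and logarithmic above, for all listed regions whose fold could be solved (grey) and the pathway regions (red higher, blue lower); point size grows with the number of regions and small numbers give it. Of the lower pathway regions 45 stand at 0 overexpression reads, 16 of them at 4 vector reads, while Stk4 lies near the line of equal reads, with 24 overexpression against 28 vector reads.

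Among the growth factor ligands, Ntf4, the neurotrophin that binds the receptor TrkB, had a lower region that passed. The other ligands had lower regions that did not pass. The Ntf4 region lay on chromosome 1 from 102486942 to 102487380 and, at 439 bp, was the longest of the 58. It rested on 0 implied overexpression reads against 11 vector reads. Its fold was 56.4 and its adjusted p 0.024 by the authors' deposited table. With 3 reads in place of 0 and no constant, the weighted ratio of vector to overexpression reads was 15.0 and the unweighted one 3.67. Fgf7, a fibroblast growth factor made by mesenchymal cells, and Vegfb, a ligand of the receptor Flt1, each had 0 overexpression against 5 vector reads. Both had a fold of 26.2, with 0.217 as adjusted p, by the authors' deposited table. Efna1, a membrane-bound ligand of Eph receptors, had 0 overexpression against 4 vector reads and a fold of 21.1 at an adjusted p of 0.248 by the authors' deposited table.

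No receptor region passed. Met, the receptor of hepatocyte growth factor, had the largest deposited fold of the 5 higher regions, though only with the constant over an implied 0. It lay on chromosome 4 from 45436382 to 45436413, only 32 bp, and rested on 35 implied overexpression reads against 0 vector reads. The fold was 44.1 and the adjusted p 0.11 by the authors' deposited table. With 3 vector reads in place of 0 and no constant, the weighted ratio of the Met region was 2.86 and the unweighted one 11.7. The weighted value is below the folds of Ppm1b (4.86) and Plce1 (4.75) in the authors' deposited table. Both of these had vector reads, and their folds include the constant. The receptors of the vascular endothelial growth factors Flt1 and Flt4, the fibroblast growth factor receptor Fgfr2 and the adenosine receptor Adora2b each had a lower region with 0 overexpression against 4 vector reads. Their folds were 21.1 or 21.2 and their adjusted p 0.248 by the authors' deposited table.

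Exchange factors, which load Ras, Rap1 or their relatives with GTP, held 1 lower region that passed. It was in Dock4, a member of the DOCK family that acts on Rac and Rap1. The Dock4 region lay on chromosome 6 from 70357194 to 70357314 (121 bp). It had 0 overexpression reads against 11 vector reads, and a fold of 56.4 at an adjusted p of 0.024 by the authors' deposited table, the same values as for Ntf4. Sos1, the Ras exchange factor that receptors recruit through Grb2, had reads in both conditions, 3 in overexpressing against 11 in vector libraries. Its fold was 12.0 and its adjusted p 0.0787 by the authors' deposited table, which misses the threshold. The ratio of unweighted reads was 3.67 (95% exact interval 0.97 to 20.5, for counting error only). This interval includes 1, but a vector read weighed 4.09 times an overexpression read. A read ratio of 1 is thus not equal weighted signal, and no conclusion is drawn from the interval. Rasgrp2, which acts mainly on Rap1, and Rgl1, an exchange factor for Ral that Ras binds, each had 0 overexpression against 8 vector reads. Their folds were 41.3 and 41.1 (adjusted p = 0.0787 and 0.112) in the authors' deposited table. Plce1, a phospholipase C that also holds an exchange factor domain, was listed as higher, with 42 overexpression reads against 2 vector reads. Its region had a fold of 4.75 at an adjusted p of 0.222 by the authors' deposited table and did not pass.

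The proteins that switch the GTPases off formed one of the largest groups, with 10 regions in 7 genes, of which 2 were higher and 8 lower. Rasa2, which inactivates Ras, and Sipa1, which inactivates Rap1, had the lower regions that passed. The Rasa2 region lay on chromosome 8 from 103988321 to 103988460 (140 bp), and the Sipa1 region on chromosome 1 from 227953607 to 227953682 (76 bp). Each rested on 0 overexpression reads against 10 vector reads. The folds were 51.3 for Rasa2 and 51.4 for Sipa1 (adjusted p = 0.036 for both) in the authors' deposited table. With 3 reads in place of 0 and no constant, the weighted ratios were 13.6 and 13.7. The unweighted ratio of reads was 3.33 for both. Rap1gap and Sipa1l2, other proteins of the Rap-inactivating kind, had 0 overexpression against 4 and 5 vector reads, and neither passed (adjusted p = 0.248 and 0.217 in the authors' deposited table).

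Nf1 was the only member with regions in both directions. It encodes neurofibromin, which inactivates Ras, and had 3 regions on chromosome 10. The higher one, from 64868838 to 64868917 (80 bp), rested on 35 overexpression reads against 0 vector reads, with a fold of 44.0 at an adjusted p of 0.129 by the authors' deposited table. The 2 lower ones began 23602 bp further along and lay 778 bp apart, from 64892520 to 64892520 and from 64893299 to 64893374. Each had 0 overexpression against 4 vector reads and an adjusted p of 0.248 by the authors' deposited table, and the first was a single base long. None of the 3 passed. Rasal2, another Ras-inactivating protein, had 2 lower regions 37.5 kb apart on chromosome 13. One had 0 overexpression against 6 vector reads, with a fold of 31.3 at an adjusted p of 0.159 by the authors' deposited table. The other had a fold of 4.33 at an adjusted p of 0.292 by the authors' deposited table, from 5 overexpression against 6 vector reads or, equally possible from the fold, 6 against 7.

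The kinases of the MAPK relay held 10 regions in 9 genes, all of them lower, of which 1 passed. That region was in Map3k5 (ASK1), a stress-activated kinase upstream of JNK and p38, on chromosome 1 from 17160936 to 17160996 (61 bp). It had the smallest p of the 58 regions and rested on 0 overexpression reads against 12 vector reads. Its deposited fold was the largest of the 58, but only with the constant over an implied 0. The fold was 61.5, the p-value 0.00012 and the adjusted p 0.0137 by the authors' deposited table. With 3 reads in place of 0 and no constant, the weighted ratio was 16.4 and the unweighted one 4.0. The weighted value is below the fold of 18.4 of Mapk8ip3, which had reads in both conditions and includes the constant. Map3k2, which feeds the JNK and ERK5 branches, had 0 overexpression against 8 vector reads and a fold of 41.2 at an adjusted p of 0.0787 by the authors' deposited table. Map3k6, a relative of Map3k5, and Nlk, a kinase of the MAPK family that also acts in Wnt signalling, each had 0 overexpression against 4 vector reads and an adjusted p of 0.248 by the authors' deposited table. Stk4 (MST1), a kinase shared with the Hippo pathway, had by far the most reads of the lower regions, 24 in overexpressing against 28 in vector libraries. Its fold of 4.65, with 0.0787 as adjusted p by the authors' deposited table, stands beside a ratio of reads of 1.17. Map4k1, an upstream kinase best known from blood cells, had a fold of 4.33 at an adjusted p of 0.292 by the authors' deposited table, from 5 against 6 or 6 against 7 reads.

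Map3k1 and Map2k3 had regions at a pair of loci each. Map3k1 (MEKK1), which activates the JNK arm, and LOC100912399 had regions of the same length, 92 bp, on chromosome 2, from 62385292 to 62385383 and from 62992323 to 62992414. The fold of 31.3 and the p-value of 0.0115 were the same at both in the authors' deposited table, as were the 0 overexpression and 6 vector reads. No other 2 members on one chromosome shared length, fold and p-value. Map2k3 (MKK3), which activates p38, had regions of 37 and 42 bp on chromosome 10, 2.11 Mb apart under the same transcript. Both had 0 overexpression against 4 vector reads and a fold of 21.1 at an adjusted p of 0.248 by the authors' deposited table. The counts of these 4 regions are uncertain, since reads of near-identical loci can be counted at either; whether they were was not tested.

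**Figure D3:**
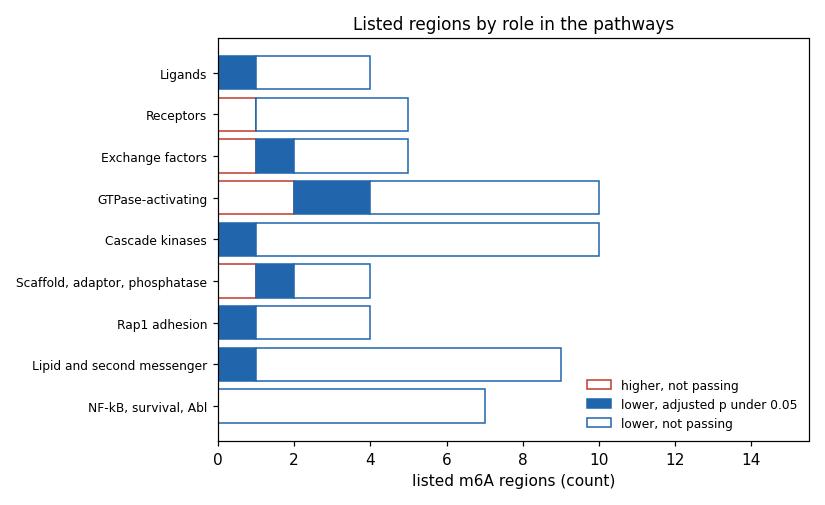
Number of listed m6A regions (x axis) of the pathway genes by role (rows), stacked as higher regions, lower regions with an adjusted p under 0.05 and other lower regions. Kinases of the relay and GTPase-activating proteins have 10 regions each, and no role has more than 2 passing ones.

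Among the scaffolds and regulators of the relay, Mapk8ip3 (JIP3) had a lower region that passed. Mapk8ip3 gathers the JNK kinases and links them to motor proteins. The region lay on chromosome 10 from 14102649 to 14102719 (71 bp). It had reads in both conditions, 3 in overexpressing against 17 in vector libraries, so that its fold does not depend on an implied 0. That fold was 18.4 at an adjusted p of 0.0164 by the authors' deposited table, and the ratio of reads alone was 5.67 (95% exact interval 1.64 to 30.2, for counting error only), the highest of the 8 lower members with reads in both conditions. Traf2, an adaptor of tumour necrosis factor receptors, and Arrb2, a receptor-bound arrestin that scaffolds MAP kinases, had 0 overexpression against 7 and 5 vector reads. Neither passed (adjusted p = 0.112 and 0.217 in the authors' deposited table). Ppm1b, a phosphatase that acts on MAPK-activating kinases, had a higher region with 43 overexpression against 2 vector reads. The fold was only 4.86 at an adjusted p of 0.177 by the authors' deposited table, in which each vector read weighs more. The ratio of reads alone was 21.5 (95% exact interval 5.60 to 183.2, for counting error only). The intervals given for Mapk8ip3, Ppm1b and Sos1 are of unweighted reads, and equal reads do not stand for equal weighted signal. These regions were listed by their p-value and fold, and the intervals take no account of that selection.

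Of the Rap1 effectors at cell junctions, Magi2, a junction scaffold of the MAGUK family, had a lower region that passed. It lay on chromosome 4 from 11213563 to 11213660 (98 bp), with 0 overexpression against 10 vector reads. The fold was 51.3 at an adjusted p of 0.036 by the authors' deposited table. With 3 reads in place of 0 and no constant, the weighted ratio was 13.6 and the unweighted one 3.33. Its paralog Magi3 had 5 overexpression against 9 vector reads and a fold of 6.43 at an adjusted p of 0.148 by the authors' deposited table. Mllt4 (now Afdn, afadin), which binds active Rap1 at adherens junctions, and Tln2, a talin that couples integrins to actin, had 0 overexpression against 6 and 5 vector reads. Neither of these passed (adjusted p = 0.159 and 0.217 in the authors' deposited table).

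The enzymes of lipid and second-messenger signalling had 9 lower regions in 8 genes and no higher one. Pla2g4a, the cytosolic phospholipase A2 that releases arachidonic acid and is activated by MAP kinases, had the lower region that passed. It lay on chromosome 13 from 72172509 to 72172613 (105 bp) and had reads in both conditions, 8 in overexpressing against 16 in vector libraries. The fold was 7.56 in the authors' deposited table, against a ratio of reads of 2. Its adjusted p of 0.0377 was the highest of the passing regions in the authors' deposited table. Next to it, just outside the threshold, stood Pld1, a phospholipase D, and one region of Prkd1, a kinase that diacylglycerol activates. Each had 0 overexpression against 9 vector reads, a fold of 46.3, with 0.0592 as adjusted p, by the authors' deposited table. A second Prkd1 region 52.7 kb away had 0 overexpression against 4 vector reads and did not pass. Pik3ca, the catalytic p110-alpha subunit of PI3K, had 0 overexpression against 8 vector reads and a fold of 41.4 at an adjusted p of 0.112 by the authors' deposited table. Plcb1, Pla2g4b and Adcy5 had 0 overexpression against 4 or 5 vector reads.

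Genes of NF-kB signalling, cell survival and the Abl2 kinase had 7 lower regions in 6 genes, and none passed. Rela, the p65 subunit of NF-kB, had 6 overexpression against 14 vector reads. Its fold was 8.51 at an adjusted p of 0.0787 by the authors' deposited table. Bcl2l1, which encodes the survival protein Bcl-xL, had 0 overexpression against 8 vector reads and a fold of 41.2 at an adjusted p of 0.0787 by the authors' deposited table. Bad, which opposes Bcl-xL, had 0 against 6 reads, and Rel and Ikbkb, a subunit and an activating kinase of NF-kB, had 0 against 5. The Ikbkb region was only 8 bp long. Abl2, a kinase that acts on actin, had 2 lower regions 90.8 kb apart, with 0 overexpression against 9 and 4 vector reads. Their folds were 46.5 and 21.1 (adjusted p = 0.0787 and 0.248) in the authors' deposited table.

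The deposited p-values followed the implied reads closely. The 16 members with 0 overexpression against 4 vector reads had p-values from 0.0396 to 0.0403 and an adjusted p of 0.248 by the authors' deposited table. All 39 members with an implied 0 in overexpressing cells and at most 9 vector reads missed the threshold, and all 6 with 10 or more passed. Of the 8 lower regions with reads in both conditions, 2 passed, Mapk8ip3 and Pla2g4a. Among members with an implied 0 in overexpressing cells, passing thus coincided with 10 or more vector reads. How reads were split between the 2 libraries of a condition was not analysed here.

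**Figure D4:**
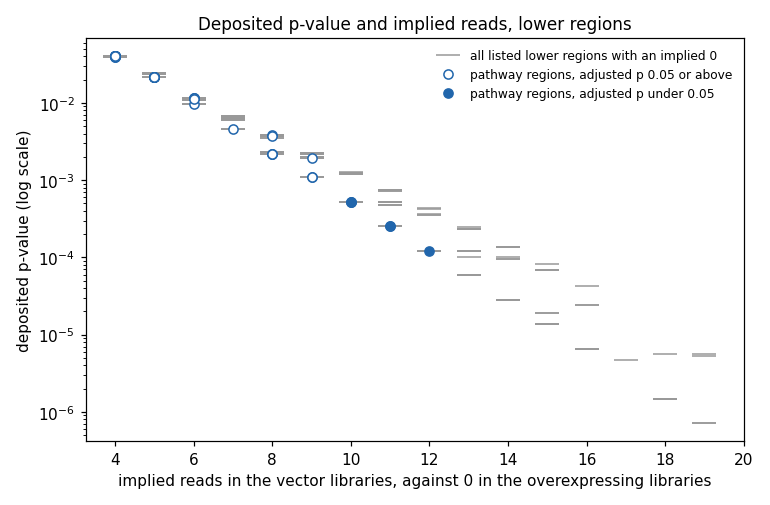
Deposited p-value (y axis, logarithmic) against implied vector reads (x axis) for lower regions with an implied 0 in the overexpressing libraries and at most 20 vector reads; grey dashes are all such listed regions and circles the pathway regions, filled where the adjusted p is under 0.05. The open circles run from 4 to 9 vector reads and the filled ones from 10 to 12.

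By pathway, 28 member genes were annotated to Ras, 25 to MAPK and 24 to Rap1 signaling. The counts by pathway are of members, without the 10 regions in 9 genes that the rule left out. Only 4 genes, Fgf7, Fgfr2 and Rasgrp2 among them, stood in all 3 pathways, 17 stood in 2 and 31 in 1. The MAPK pathway held 2 higher and 26 lower regions, of which 5 lower ones (19.2%) passed. In the Ras pathway there were 4 higher and 28 lower regions, with 2 lower ones (7.14%) passing, and in the Rap1 pathway 2 higher and 24 lower, with 3 lower ones (12.5%) passing. Beside these stand 13.0% of all listed lower regions, and with so few passing regions no difference between the pathways is read from the shares. Some members also carry annotations of adjoining pathways: 13 of 52 (25.0%) are annotated to PI3K-Akt signaling, beside 6.11% of the 540 annotated genes, and 9 (17.3%) to neurotrophin signaling, beside 2.22%. KEGG pathways share genes by construction, so these shares are a description only. Of the 50 members with a cellular component term, 23 (46.0%) carry cytosol, beside 11.8% of all listed genes with such a term. For plasma membrane these shares were 30.0% and 16.7%, for nucleus 34.0% and 32.9%, and for postsynaptic density 12.0% and 1.99%. Members were chosen by their pathway annotation, so these shares too are a description only.

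Most genes on lists of pathway components drawn up here had no listed region. Of 290 genes on 11 such lists, 41 had a region and 249 had none. The lists were drawn up with earlier results of these data known. Only 37 of the 52 members stand on them. Ntf4 and Dock4, which passed, are not on the ligand and exchange factor lists, so the counts leave out some pathway genes with a region. A higher region was found in 5 of the 290 genes and a lower one in 37. By the authors' deposited table, the adjusted p of 5 genes on the lists passed as lower and none as higher. The 5 genes with a higher region had an unadjusted p under 0.05 by the way the table was made. These counts, and those of the single lists, are of genes and stand beside 86.9% lower among all listed regions and 13.0% passing among all listed lower ones. The share of all expressed genes with a listed region is unknown, so no list can be read as above or below it. Genes with a region that the member rule left out are not on the lists. With no gene left out of the 3 pathways, 2 higher regions passed. Among the 21 Ras and Rap family GTPases 1 had a region, Rap2a, a relative of Rap1, and none passed. Of the 45 relay kinases 9 had one, all lower, and 1 passed. The 16 GTPase-activating proteins had 7 genes with a region, of which 2 were in the higher and 6 in the lower table, Nf1 being in both, and 2 passed as lower. Of 33 kinases and transcription factors downstream of the MAP kinases 1 had a region, and of 28 phosphatases and inhibitors 2, none of them passing. The lists added 4 genes that the pathway annotation does not hold. Rap2a and Nrg1, a ligand of ErbB receptors, had 0 overexpression against 4 vector reads, and Tnik, a kinase of the MAP4K family, and Spred1, an inhibitor of Ras signalling, had 0 against 6. None of the 4 passed (adjusted p = 0.248, 0.248, 0.159 and 0.159 in the authors' deposited table).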

How the data were processed

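Per the labels' protocols, RNA fragments were immunoprecipitated with an m6A antibody or kept as input, and stranded libraries were sequenced. Trimmomatic 0.36 is the tool the submitters' processing notes name. The aligner, build and test: not given in the sources used here. In the deposited files every region's name starts with diffreps. The 2 tables hold the authors' comparison: the deposited fold (a ratio), the deposited p-value and adjusted p-value, and a deposited score that is the −log10 of the p-value. From these, members were selected by their pathway text and counted by direction and adjusted p (threshold 0.05) with Python 3.11.15 and pandas 2.3.3. Implied reads were solved from each fold as the pair of whole reads with the smallest sum, after a constant of 0.1. The solving was tested on simulated data made with the same constant and similar weights. That test cannot show that the deposited folds were made this way. Another solution with less than 2 times the reads existed for 2 member regions and for 28 of all listed regions. No solution was found for 5 listed regions, none of them members. Gene IDs were looked up in RefSeq GRCr8 for names only, and 51 of 52 matched. Genes were named by these rules: passing members, all higher regions, members with more than 1 region, the 10 largest lower folds, and members of the kinase, GTPase, exchange factor, GTPase-activating, receptor and ligand lists; other members named by role were added after their values were seen. Of the members, 2 are not reported here by name and are not drawn in the plot of folds by gene, but stay in all counts, shares and medians. The members, roles and lists were chosen with earlier results of these data known.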

Additional observations from a re-analysis of the deposited data

How the results depend on the processing

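The count of 8 passing regions, all lower, was the same when genes were counted, when regions under 50 bp were left out and, among alternatives chosen after seeing the data, with at least 10 implied reads or without the repeated loci. At an adjusted p under 0.01 it was 0 (0 lower), without folds of a single decimal 2 (2 lower), and over all listed regions 58, of which 5 were higher and 53 lower. Members of the MAPK, Ras and Rap1 pathways alone held 5, 2 and 3, all lower. With no gene left out there were 11, of which 2 were higher and 9 lower. The share of lower regions was 80.0% without folds of a single decimal (72.5% of all listed regions) and 73.7% with at least 10 implied reads (5 higher, 14 lower; 63.8% of all listed regions). With 3 reads in place of an implied 0, and no constant for those regions, the median fold was 2.86 for higher and 6.83 for lower members. For all listed regions it was 4.19 and 7.15. Without folds of a single decimal the member medians were 4.80 and 6.99. Of the listed pathway components 41 genes had a region where 5 passed. Subsets have fewer regions by the way they are made, and otherwise the cause was not tested. No paired analysis was possible because values per library were not used, and for that reason no library was left out in turn. Depth is unknown, and a lower region with 4 vector reads against 0 is close to the limit that 3 reads set.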

Other observations

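Several member regions lay close together on the chromosomes, as given by the deposited coordinates. On chromosome 1, Rela, Sipa1, Rasgrp2, Bad and Vegfb lay within 1.30 Mb, from 227928092 to 229230720, and these 5 regions were among 8 listed regions in that stretch, all lower. On chromosome 13, the Abl2 and Rasal2 regions, 4 in all, lay within 0.570 Mb that held 6 listed regions, all lower. On chromosome 10, the 3 Nf1 regions and the Nlk region were the only listed ones in a stretch of 0.935 Mb. Chromosomes 1 and 10 held 12 and 10 of the 58 regions, or 4.40% and 6.94% of the listed regions there, and chromosome 13 held 6, or 9.68%. On the other chromosomes with members the share ran from 1.12% (chromosome 9) to 5.45% (chromosome 2). Beside these stand 58 of 1967 listed regions in all. These stretches were picked after the positions were seen, and no test was made.

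The member regions had a median length of 110 bp, beside 131 bp for all listed regions. Of the 58, 6 were under 50 bp, in Nf1 (1 bp), Ikbkb (8 bp), Adcy5 (23 bp), Met (32 bp) and Map2k3 (37 and 42 bp). None of these 6 passed.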
